A study of Danio rerio with 4 samples.

Results

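The genes described here are DNA repair genes of the zebrafish testis that serve cells in general and are not specific to meiosis. They were chosen by name: every Ensembl gene whose zebrafish symbol begins with the name of a known repair factor, such as fanc, rad5, xrcc, ercc, parp, msh or apex. This gave 84 of 35066 Ensembl genes. Of these, 65 were assigned a role in repair. The other 19 were not, such as attractin (ATRN) or the ADP-ribosyltransferases of the parp14 group, and are called matched by first letters only. That label does not show that each of them, with ATRX, ATMIN and ercc6l2 included, lacks a part in repair. The 19 were counted among the 84 but are described separately. brca1 is not analysed here.

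The RNA came from testes of wild-type AB zebrafish labelled male and 5 months old. There were 4 groups with 1 library each: control, dibutyl phthalate (DBP), diisobutyl phthalate (DiBP), and DBP together with DiBP (written DBP+DiBP), with exposure for 30 days. The design text calls the fish female, while each sample is labelled male and testis. No dose, control vehicle or number of fish in a library is stated in the labels. Both compounds are plasticizers, and they are isomers: the butyl chains of DBP are linear and those of DiBP branched. With 1 library in each group no value has a replicate check, no test was made, and every difference describes these libraries.

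DNA repair is divided by the kind of lesion. Double-strand breaks are sensed by the MRE11 complex and the kinases ATM and ATR, and are mended by homologous recombination or by end joining around the Ku proteins. Damaged bases are cut out by glycosylases and the AP endonuclease APEX1, bulky lesions by nucleotide excision, mispaired bases by the MSH proteins, and crosslinks with the help of the Fanconi anaemia proteins. Dividing spermatogonia and spermatocytes of the testis express many of these genes. The roles given below are known mainly from human, mouse and yeast cells.

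Levels are in FPKM (fragments scaled by the length of the transcript and by library size), a unit read from the values because the files do not name it. Ratios are on the scale of log2(FPKM + 1), which understates the folds of weak genes. A gene is called higher or lower when this ratio reached 2-fold. Features averaging at least 1 FPKM over the 4 libraries were compared, 23405 in all. Where 4 values follow each other, they are for control, DBP, DiBP and DBP+DiBP in that order. The compared features included 78 of the 84 genes and 62 of the 65 with a repair role. The 6 whose mean was under 1 FPKM were ogg1, fancb, 1 of the 2 UNG copies (ENSDARG00000094922), 1 of the 2 ATRNL1 copies, parp142.2 and parp14rs2.1. Another 5 share all their values with a second identifier, so their levels are uncertain: PARP2 (with RNase P RNA genes), RAD54B (with FSBP), mutyh (with armh1), rad51ap1 (with an assembled locus) and atrxl (with zdhhc15a). So does the weak UNG copy, with a 5S rRNA gene. LIG3 and rad51d overlap each other in the GRCz12tu annotation, and since strand use is not stated their reads may be mixed. The same limit holds for other genes that overlap an expressed neighbour. Among them are NEIL3 (with AGA), fancm (with soul3), FANCL (with VRK2), PARP2 (with mettl17) and MSH6 (with fbxo11a). AGA had 5.64, 7.65, 7.46 and 21.5 FPKM, highest in DBP+DiBP as NEIL3 was.

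The DBP+DiBP library stood apart from the other 3 in its cell markers, and every comparison with it carries this. FPKM summed over 8 germ cell markers (10 were listed) stood at 1735 in control, 2139 after DBP, 1845 after DiBP and 937 after both. In DiBP 6 of the 8 were below control. SYCP3 (342 in control, 532 in DiBP) and TEKT1 (308 and 419) were above it. All 8 were below control in DBP+DiBP. The 6 compared spermatogonia markers had median log2 ratios of -0.11, -0.40 and -0.85 in DBP, DiBP and DBP+DiBP. All 6 were below control in DiBP. DDX4, DAZL and PIWIL1 count in both lists. For 5 gut markers the sums were 13.0, 15.1, 5.35 and 3046, and for 4 leukocyte markers 48.3, 62.1, 63.6 and 253. In sum, germ cell markers were thus lowest, and gut and leukocyte markers highest, in DBP+DiBP. Most of the leukocyte sum there was lyz, at 7.58, 6.82, 5.89 and 181 FPKM. ptprc and marco were also highest in DBP+DiBP, while CORO1A had 37.9, 48.7, 52.1 and 40.4 FPKM, highest in DiBP. The 5 Leydig cell markers summed to 2275, 2746, 1161 and 423, so DiBP also differed from control here, at 51.0% of it, with DBP+DiBP at 18.6%. Most of each sum was insl3, at 2072, 2455, 1044 and 293 FPKM. STAR, cyp11c1 and hsd3b1 were higher in DBP+DiBP than in DiBP, and hsd3b1 was above control in both. The 5 Sertoli cell markers summed to 240.1, 262, 239.8 and 428, but they did not move together. gsdf had 55.0, 95.0, 89.9 and 340 FPKM, highest in DBP+DiBP. amh had 79.1, 52.6, 42.7 and 31.3 and DMRT1 had 105, 112, 106 and 54.4, both lowest there. Both SOX9 copies were weak and highest in DBP+DiBP. Each of these markers was above 0 in every library. FPKM over all identifiers summed to between 547485 and 605447 in a library, and depth relative to control, read from low values, was 1.05 to 1.103. In bulk RNA, fewer cells of a type and less RNA in each cell cannot be told apart. The part of these markers in the repair gene values was not tested.

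The repair genes spanned a wide range of levels in control. mgmt, which removes alkyl groups from guanine, was the most abundant at 109 FPKM. It was followed by the uracil glycosylase UNG (ENSDARG00000042527) at 89.9, xrcc1 at 69.2 and the mismatch sensor MSH6 at 67.6. At the other end stood ogg1 at 0.666 FPKM, fancb at 0.913 and the second UNG copy at 1.31, a value shared with a 5S rRNA gene. Of the compared repair genes the weakest were LIG4 at 1.34 FPKM, MSH3 at 2.05, PRKDC at 2.09, XPA at 2.298 and XRCC2 at 2.48. Base excision genes thus stood at both ends of the range. Base excision held the largest sum of any role in control, 410 FPKM over 15 genes, and end joining the smallest, 88.5 over 5.

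**Figure D1:**
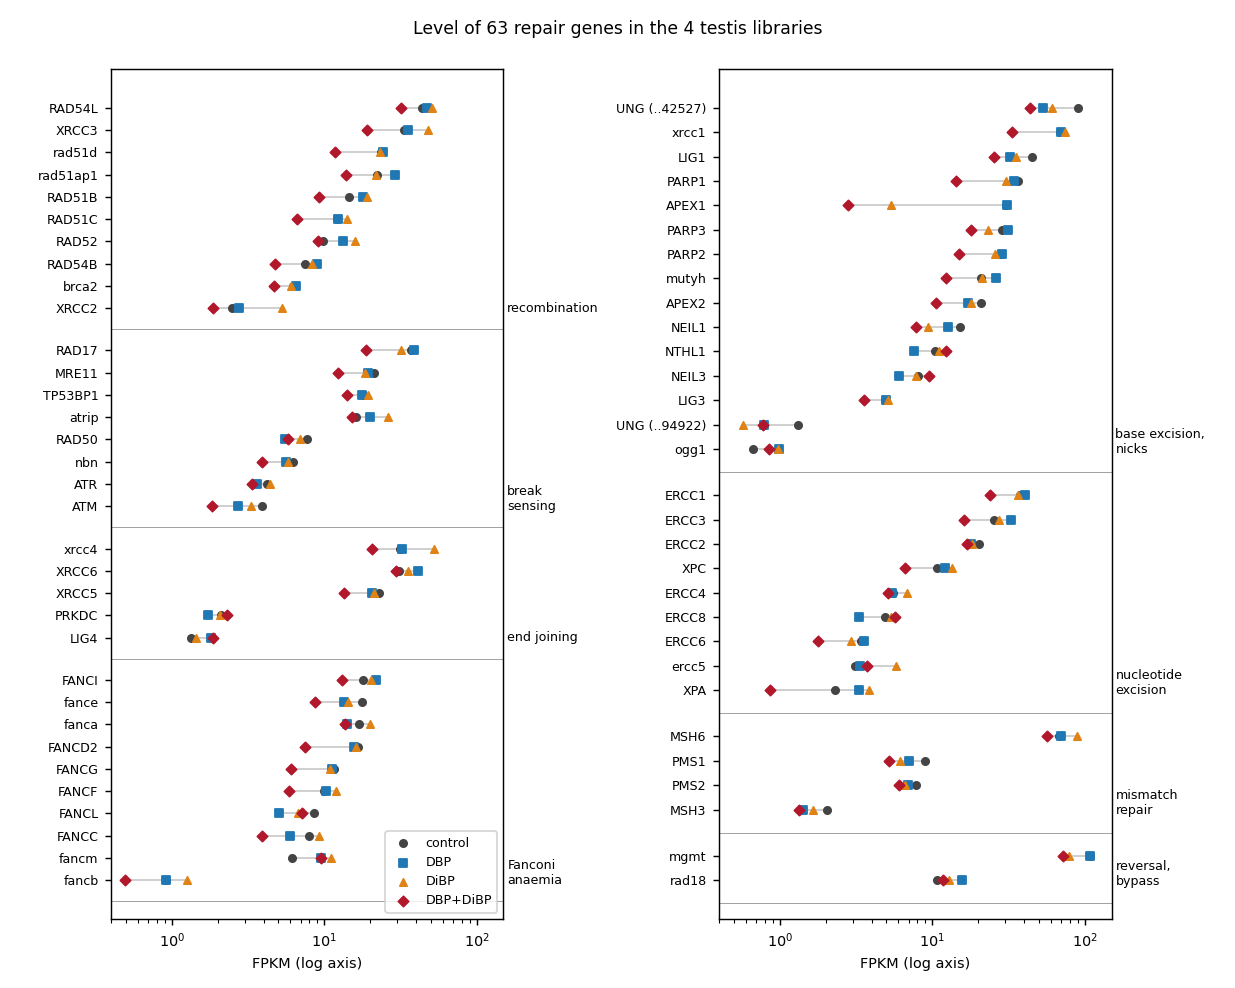
FPKM (log axis) of 63 of the 65 repair genes in the 4 testis libraries, grouped by repair role and ordered by control level within a role; each symbol is 1 library and the grey line spans its range. The DBP+DiBP symbol lies at the left end for most genes, and APEX1 is the gene whose DiBP and DBP+DiBP symbols both lie far below control (5.34 and 2.78 against 30.5 FPKM).

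Across control, DBP and DiBP the repair genes varied little. The range of the 62 genes over these 3 libraries had a median of 0.33 on the log2 scale, against 0.51 for all features. In 52 of 62 genes (83.9%) it stayed under 1.5-fold, against 57.3% of all features. It reached 2-fold in 1 gene, APEX1, or 1.61% of the 62, against 17.1% of all features. Among features averaging at least 5 FPKM, such a range under 1.5-fold was seen in 62.1% of all and in 80.0% of the 60 genes of the full set of 84 at that level. With DBP+DiBP included the range reached 2-fold in 14 of 62 (22.6%), a smaller share than the 36.4% of all features, and 52 of 62 (83.9%) had their lowest value in DBP+DiBP, against 40.3% of all features. At 5 FPKM or more, 48.4% of all features and 83.3% of the 60 genes had their lowest value there.

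Few of the 78 genes passed 2-fold against control. In DBP 1 was higher (background over all features 6.68%) and 0 lower (background 4.5%), with a median log2 ratio of 0.02. In DiBP 1 was higher (background 4.6%) and 1 lower (background 3.86%), with a median of 0.04. In DBP+DiBP 1 was higher (background 9.57%) and 6 lower (background 6.42%), and the median was -0.50. This background includes features that passed the filter only through the DBP+DiBP library. With a filter that ignores that library, 6.57% of features were higher and 7.16% lower. With 0.1 FPKM added in place of 1, 1 was higher (background 13.5%) and 10 lower (background 12.2%) in DBP+DiBP. The count of lower genes in DBP+DiBP is near the background share, so it is no result about repair genes as a group. All features include assembled loci outside Ensembl. Over the 15756 compared Ensembl genes alone, the higher and lower shares were 4.34% and 3.61% in DBP and 3.54% and 2.70% in DiBP. In DBP+DiBP they were 9.40% and 4.95%. The medians over all features were 0.05, -0.01 and -0.11 in the same order. Over features averaging at least 5 FPKM they were 0.04, 0.04 and -0.20.

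The shift in DBP+DiBP was broad and mostly below 2-fold. Of the 62 genes with a repair role 54 (87.1%) had a ratio to control below 0, against 57.2% of all features, and the median was -0.59. Over the 78 the sign of the median held under each scaling tried except centring on the germ cell markers, which turned it from -0.50 to 0.59 while moving the median of all features from -0.11 to 0.99. At 1.5-fold, 33 of the 78 were lower (background 20.0%) and 3 higher (background 16.8%), and of the 62 with a repair role 31 were lower and 0 higher. Summed over the 65 repair genes the level was 1317 FPKM in control, 1294 after DBP, 1287 after DiBP and 831 after both. The sum in DBP+DiBP was 63.1% of control. Beside it, the 11 replication licensing genes were at 68.1% of control, the 8 germ cell markers at 54.0% and 18 meiosis genes at 51.9%. SYCP1, SYCP3, DMC1 and spo11 count in both the germ cell and the meiosis sum, so these percentages are not independent. In sum the repair genes were thus lower in DBP+DiBP, as were the replication licensing, germ cell and meiosis lists. The Leydig cell markers were lower in sum as well, at 18.6% of control, and so were the Sertoli cell markers amh and DMRT1. Gut and leukocyte sums and the Sertoli cell sum were higher. The part of any cell type in the repair gene values was not tested.

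**Figure D2:**
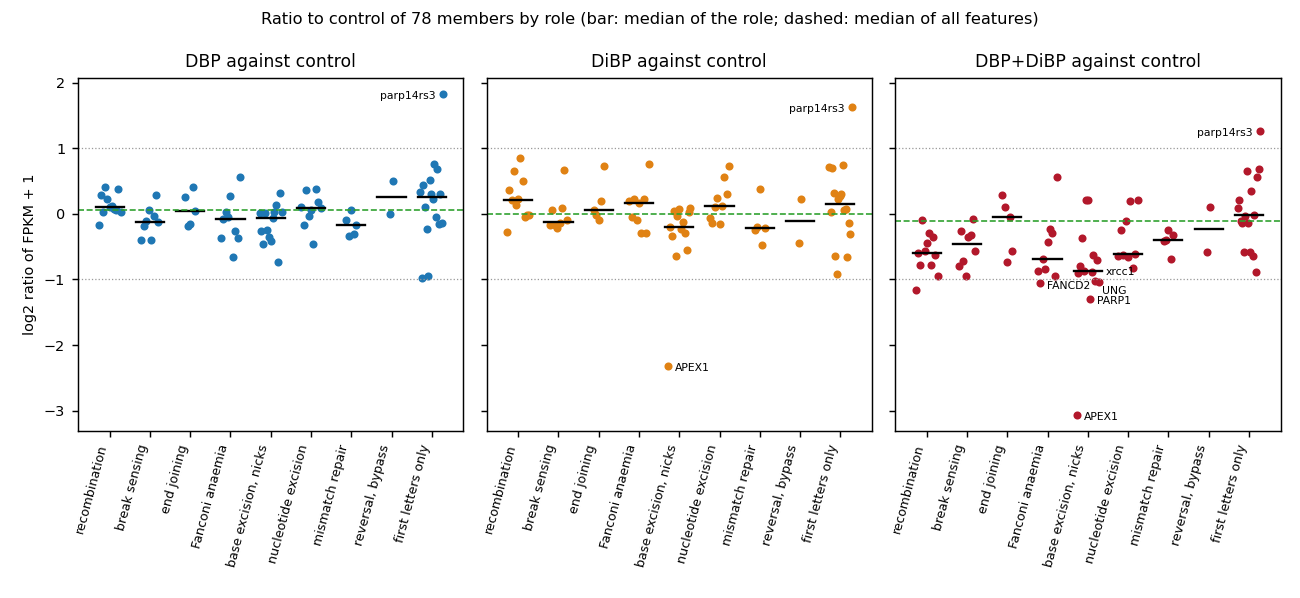
Ratio to control on the log2(FPKM + 1) scale for the 78 compared genes in each exposed library, by repair role; the 19 genes matched by first letters only form the last column, with 16 of them compared. Black bars are role medians, the green dashed line is the median of all features, and dotted lines mark 2-fold; role medians lie near 0 in DBP and DiBP and below 0 in DBP+DiBP, and the labelled genes lie past 2-fold.

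The base excision and single-strand break genes had the lowest median of any role in DBP+DiBP. Their summed level was 410 FPKM in control, 359 after DBP, 329 after DiBP and 210 after both, or 51.3% of control in the last. Of 13 compared, 4 were lower in DBP+DiBP (APEX1, PARP1, xrcc1 and UNG), where the background is 6.42%. Of the 13, 11 had a ratio below 0, as had 57.2% of all features, and the median was -0.87. xrcc1 and UNG, and FANCD2 below, came just under 2-fold (log2 ratios -0.94, -0.93 and -0.98) with median-ratio scaling of the libraries, and slightly above control when centred on the germ cell markers. After DBP 0 of 13 passed 2-fold (median -0.06), and in DiBP APEX1 alone did (median -0.20).

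APEX1 (ENSDARG00000045843) encodes the main AP endonuclease, which cuts the backbone where a glycosylase has left a site without a base. It stood at 30.5 FPKM in control, 30.7 after DBP, 5.34 after DiBP and 2.78 after both. The libraries that received DiBP, alone or with DBP, were low, and the other pair was high and nearly equal. The log2 ratio to control was 0.01 after DBP, -2.31 after DiBP and -3.06 after both. In sum the Leydig cell markers were low in the same pair of libraries, mostly through insl3. Of the 5, 4 were below control in DiBP and 4 in DBP+DiBP. The remaining marker, hsd3b1, was above control in both, at 4.81, 11.2, 5.63 and 7.69 FPKM. insl3, a Leydig cell hormone, had 2072, 2455, 1044 and 293 FPKM, and STAR, which carries cholesterol into mitochondria, had 132, 159, 64.6 and 71.5. Leydig cell markers were not alone in this. All 6 compared spermatogonia markers were below control in DiBP and in DBP+DiBP (medians -0.40 and -0.85), and 3 of them in DBP (median -0.11). The part of Leydig cells or spermatogonia in the APEX1 values was not tested. In FPKM, control was 5.72-fold above DiBP and 11.0-fold above DBP+DiBP. OSGEP, a gene for tRNA modification that lies next to APEX1 in the GRCz12tu annotation, had 15.4, 13.1, 15.1 and 14.1 FPKM in the same order, with no library apart. APEX2, the second AP endonuclease, had 20.8, 17.2, 17.9 and 10.6 FPKM, lowest in DBP+DiBP. The FPKM ratio of APEX1 to APEX2 was 1.47 in control, 1.78 after DBP, 0.298 after DiBP and 0.262 after both. APEX1 was also the repair gene farthest from control in DiBP, and the next below 0 was NEIL1, with a log2 ratio of -0.64. Each of these values comes from 1 library, and no replicate shows whether the low APEX1 level recurs in other fish given DiBP.

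**Figure D3:**
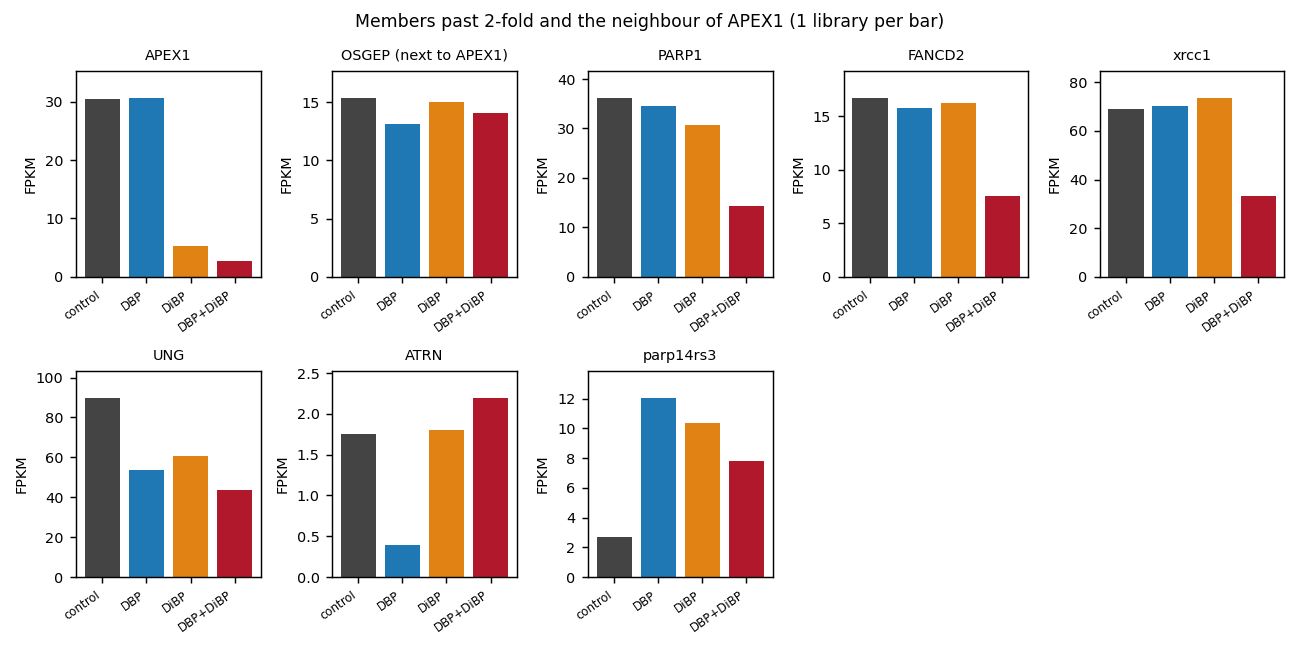
FPKM (linear axis from 0, its own scale in each panel) in the 4 libraries for genes past 2-fold against control or between the isomers, with OSGEP, the neighbour of APEX1, beside them; each bar is 1 library. APEX1 is low in DiBP and DBP+DiBP while OSGEP keeps between 13.1 and 15.4 FPKM, and PARP1, FANCD2 and xrcc1 are low in DBP+DiBP alone.

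PARP1 makes poly(ADP-ribose) at broken DNA and thereby calls in xrcc1, the scaffold of single-strand break repair. PARP1 stood at 36.3 FPKM in control, 34.6 after DBP, 30.6 after DiBP and 14.2 after both, and xrcc1 at 69.2, 70.4, 73.8 and 33.2. Both were close in the first 3 libraries and low in DBP+DiBP, with log2 ratios of -1.29 and -1.04. PARP2 had 28.5, 28.9, 26.0 and 14.9 FPKM (log2 ratio -0.89 in DBP+DiBP) and PARP3 had 28.5, 31.4, 23.1 and 18.1 (-0.63), below control in DBP+DiBP but under 2-fold. UNG (ENSDARG00000042527), which removes uracil from DNA, was at 89.9, 53.6, 60.8 and 43.5 FPKM. It was below control in each exposed library, with log2 ratios of -0.73 after DBP, -0.56 after DiBP and -1.03 after both.

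The other glycosylases did not share a pattern. mutyh, which removes adenine opposite oxidized guanine, had 20.9, 26.2, 21.3 and 12.4 FPKM. NEIL1, for oxidized bases, had 15.2, 12.7, 9.41 and 7.88. NEIL3, a related enzyme, had 8.06, 6.08, 7.84 and 9.51. NEIL1 was below control in each exposed library, mutyh in DBP+DiBP alone, and NEIL3 was highest in DBP+DiBP. NTHL1, for oxidized pyrimidines, had 10.4, 7.54, 11.1 and 12.2 FPKM, also highest in DBP+DiBP. ogg1, the glycosylase for oxidized guanine, was weak in every library at 0.666, 0.9854, 0.979 and 0.854 FPKM. The ligase LIG1 had 44.8, 32.5, 35.2 and 25.5, and LIG3, the ligase that binds xrcc1, had 4.89, 4.94, 5.09 and 3.54. LIG1 was below control in each exposed library, and LIG3 in DBP+DiBP alone.

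The homologous recombination genes were lowest in DBP+DiBP as a role. All 11 had a ratio below 0 there (median -0.60), as had 57.2% of all features, while their medians were 0.10 in DBP and 0.21 in DiBP. brca2, which acts in recombination at resected ends, had 6.24, 6.56, 6.02 and 4.69 FPKM, lowest in DBP+DiBP.

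XRCC3, XRCC2, RAD51B, RAD51C and rad51d form complexes that assist strand exchange. XRCC3 stood at 33.5 FPKM in control, 35.4 after DBP, 47.7 after DiBP and 19.0 after both, its partner RAD51C at 12.05, 12.3, 14.1 and 6.58, and RAD51B at 14.6, 18.0, 19.1 and 9.31. These 3 shared an order, highest in DiBP and lowest in DBP+DiBP. XRCC2 followed it at 2.48, 2.77, 5.27 and 1.86 FPKM, and rad51d, its partner, had 23.6, 24.1, 23.2 and 11.8, flat over the first 3 libraries. RAD52, which anneals single strands, had 9.86, 13.3, 15.995 and 9.15 FPKM, higher than control in DBP and DiBP and near it in DBP+DiBP. The translocase RAD54L had 43.9, 47.1, 51.3 and 31.9, and RAD54B had 7.51, 8.99, 8.32 and 4.75. rad51ap1, which promotes strand invasion, had 22.1, 29.2, 21.8 and 14.0. In these 3 genes, too, the DBP+DiBP library was the lowest.

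Genes that sense breaks and signal from them differed less. Of 8, 0 passed 2-fold against control in DBP+DiBP on the log2(FPKM + 1) scale. All 8 had a ratio below 0 (median -0.45), as had 57.2% of all features. RAD17, which loads the checkpoint clamp, came nearest at 37.2, 38.9, 32.0 and 18.8 FPKM (log2 ratio -0.95). MRE11, the nuclease of the break sensor, had 21.1, 19.3, 18.5 and 12.3 FPKM. Its partners had 7.70, 5.57, 6.92 and 5.83 (RAD50) and 6.22, 5.65, 5.74 and 3.90 (nbn). MRE11 and nbn were lowest in DBP+DiBP, and RAD50 in DBP.

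The kinase ATM had 3.90 FPKM in control, 2.71 after DBP, 3.33 after DiBP and 1.82 after both, and ATR had 4.21, 3.60, 4.43 and 3.35. In FPKM alone, control was 2.14-fold above DBP+DiBP for ATM, a weak gene not called with 1 FPKM added (log2 ratio -0.80). atrip, the partner of ATR, had 16.1, 19.9, 26.3 and 15.1. atrip and ATR were both highest in DiBP, by a log2 ratio to control of 0.67 and 0.06, while ATM was highest in control. TP53BP1, which favours end joining, had 18.1, 17.6, 19.4 and 14.2 FPKM.

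End joining was the role with the smallest shift in DBP+DiBP, with a median of -0.05 over 5 genes and 0 past 2-fold. XRCC5 and XRCC6 encode the Ku subunits that hold broken ends. XRCC5 had 22.9, 20.6, 21.4 and 13.5 FPKM, lowest in DBP+DiBP, while XRCC6 had 30.8, 41.3, 35.4 and 29.7. The FPKM ratio of XRCC5 to XRCC6 was 0.745 in control, 0.498 in DBP, 0.603 in DiBP and 0.452 with both. xrcc4, the scaffold of the ligase, had 31.3, 32.3, 52.5 and 20.7 FPKM, high in DiBP (log2 ratio 0.73) and low in DBP+DiBP (-0.57). LIG4, the ligase itself, had 1.34, 1.79, 1.44 and 1.86, and the kinase PRKDC had 2.09, 1.73, 2.07 and 2.31. Both weak genes were highest in DBP+DiBP.

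The Fanconi anaemia genes act on DNA crosslinks: a core complex adds ubiquitin to the FANCD2 and FANCI pair. FANCD2 stood at 16.7 FPKM in control, 15.8 after DBP, 16.2 after DiBP and 7.50 after both. It was level over 3 libraries and low in DBP+DiBP, with a log2 ratio of -1.06. It was the only one of 9 compared genes past 2-fold there on the log2(FPKM + 1) scale, and the median of the 9 was -0.68. In FPKM alone, control was 2.23-fold above DBP+DiBP for FANCD2, 2.03-fold for FANCC and 2.02-fold for fance. With median-ratio scaling FANCD2 came just under 2-fold too. FANCI had 18.1, 22.0, 20.3 and 13.1 FPKM, so the FPKM ratio of FANCD2 to FANCI was 0.927 in control and 0.570 in DBP+DiBP. Of the core subunits, FANCC had 7.96, 5.93, 9.24 and 3.92, fance 17.7, 13.4, 14.3 and 8.75, FANCG 11.7, 11.3, 10.8 and 6.09, and FANCF 10.02, 10.2, 11.9 and 5.86. Each of these 4 was lowest in DBP+DiBP. fanca had 17.0, 14.0, 20.1 and 13.6 FPKM, and FANCL, the ubiquitin ligase, had 8.57, 5.04, 6.78 and 7.18, lowest in DBP. fancm, the translocase that brings the core to DNA, went the other way with 6.17, 9.59, 11.1 and 9.59, above control in each exposed library (log2 ratios 0.56, 0.76 and 0.56).

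Nucleotide excision cuts out bulky lesions. Of its 9 genes 0 passed 2-fold against control on the log2(FPKM + 1) scale in any exposed library. In DBP+DiBP 7 had a ratio below 0 (median -0.62), as had 57.2% of all features. In FPKM alone, control was 2.68-fold above DBP+DiBP for XPA, a weak gene whose ratio on that scale was -0.83. XPA, which checks the lesion, had 2.298 FPKM in control, 3.29 after DBP, 3.86 after DiBP and 0.857 after both, higher than control in the single exposures and lowest in both together. XPC, which finds the lesion, had 10.7, 12.2, 13.5 and 6.62 in the same order of libraries. ERCC3 and ERCC2, the helicases of the repair and transcription factor TFIIH, had 25.6, 33.0, 27.5 and 16.2 (ERCC3) and 20.3, 17.9, 18.4 and 16.9 (ERCC2). XPA, XPC and ERCC3 thus each stood above control in DBP and DiBP and below it in DBP+DiBP. The nuclease pair ERCC1 and ERCC4 had 37.9, 40.7, 36.3 and 23.9 and 5.57, 5.40, 6.79 and 5.09 FPKM, with ERCC1 low in DBP+DiBP and ERCC4 nearly level. The second nuclease, ercc5, had 3.10, 3.36, 5.80 and 3.74. Of the factors for transcribed genes, ERCC6 had 3.39, 3.56, 2.92 and 1.79 and ERCC8 had 4.89, 3.29, 5.36 and 5.71. These last 3 shared no order.

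The 5 mismatch repair genes all had a ratio below 0 in DBP+DiBP (median -0.39), as had 57.2% of all features. Of the 5, 0 passed 2-fold in any exposed library. MSH6 recognizes mispaired bases, and MSH3 recognizes loops. MSH6 had 67.6, 70.1, 88.6 and 56.6 FPKM, highest in DiBP, and MSH3 had 2.05, 1.41, 1.65 and 1.33, highest in control. MSH6 exceeded MSH3 in FPKM 32.9-fold in control, 49.6-fold after DBP, 53.7-fold after DiBP and 42.7-fold after both. PMS2, which cuts the strand to be removed, had 7.85, 6.89, 6.59 and 6.07 FPKM, and PMS1, a related protein, had 8.997, 7.07, 6.16 and 5.20. Both were highest in control and lowest in DBP+DiBP.

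Outside these routes, mgmt had 109 FPKM in control, 109 after DBP, 79.3 after DiBP and 72.6 after both. Its libraries split as those of APEX1 did, with both that received DiBP below the other pair, but by less (log2 ratios 0.00, -0.45 and -0.58). rad18, the ubiquitin ligase that starts bypass of lesions, had 10.8, 15.7, 12.8 and 11.7, highest in DBP.

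Among the genes matched by first letters only, 16 were compared. parp14rs3 (ENSDARG00000098398) was the 1 gene of the 78 called higher than control in any exposed library, and it was called in all 3. It had 2.67 FPKM in control, 12.1 after DBP, 10.4 after DiBP and 7.84 after both (log2 ratios 1.83, 1.63 and 1.27). PARP11 had 3.34, 1.26, 1.31 and 3.26 FPKM, low in both single exposures and at the control level in both together. ATRN had 1.76 in control, 0.396 after DBP, 1.80 after DiBP and 2.20 after both, low in DBP alone. In FPKM alone, control was 2.66-fold above DBP and 2.55-fold above DiBP for PARP11, and 4.44-fold above DBP for ATRN. The other way, atraid was 2.52-fold above control in DBP and 2.46-fold in DiBP, and ATMIN 2.54-fold in DiBP. With 1 FPKM added, none of these differences from control reached 2-fold. The median of the 16 in DBP+DiBP was -0.03, with 9 of 16 below 0, beside -0.59 and 54 of 62 for the repair genes.

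The isomers were compared directly, with the limit that the labels give no doses, so it is not known whether the exposures were matched. DiBP against DBP, 1 of the 78 genes was higher (background 2.65%) and 1 lower (background 4.32%), with a median of 0.05 against -0.04 over all features. The lower gene was APEX1 (log2 ratio -2.32) and the higher was ATRN (1.003), at the threshold. Of the 62 repair genes, next after APEX1 were XRCC2 (0.74), xrcc4 (0.69) and ercc5 (0.64), all higher in DiBP, with 5.27, 52.5 and 5.80 FPKM there and 2.77, 32.3 and 3.36 in DBP. With 1 library for each isomer no interval can be given for these differences, and small values do not show that the isomers act alike.

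Joint exposure was also set against each single exposure. Against DBP, 1 gene of 78 was higher (background 10.2%) and 7 were lower (background 11.3%), with a median of -0.48 (all features -0.18). The 7 were APEX1, PARP1, XPA, xrcc1, mutyh, RAD17 and rad51ap1, and the higher gene was ATRN. Against DiBP, 0 were higher (background 10.5%) and 8 lower (background 8.19%), with a median of -0.51 (all features -0.13). The 8 were XPA, xrcc4, XRCC3, XRCC2, xrcc1, FANCC, PARP1 and FANCD2. APEX1 was not among these, since it was already low in DiBP. All the comparisons with DBP+DiBP use the library whose markers stood apart.

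To ask whether the single exposures add up to the joint one, the DBP and DiBP log2 ratios to control were both subtracted from that of DBP+DiBP. A negative value means a lower level in the joint exposure than the single exposures add up to. Of the 78 genes 3 departed upward by 2-fold (background 15.1%) and 16 downward (background 20.0%), with a median of -0.62 against -0.16 over all features. The downward share is near the background. The lowest among repair genes were XPA (-1.77), XRCC3 (-1.36) and xrcc4 (-1.34), each at or above control in both single exposures and below it in DBP+DiBP. All 11 recombination genes were below 0 (median -0.99), as were 56.4% of all features and all 18 meiosis genes (median -1.38). Mismatch repair genes had a median of 0.06, and the value of APEX1 was -0.75.

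**Figure D4:**
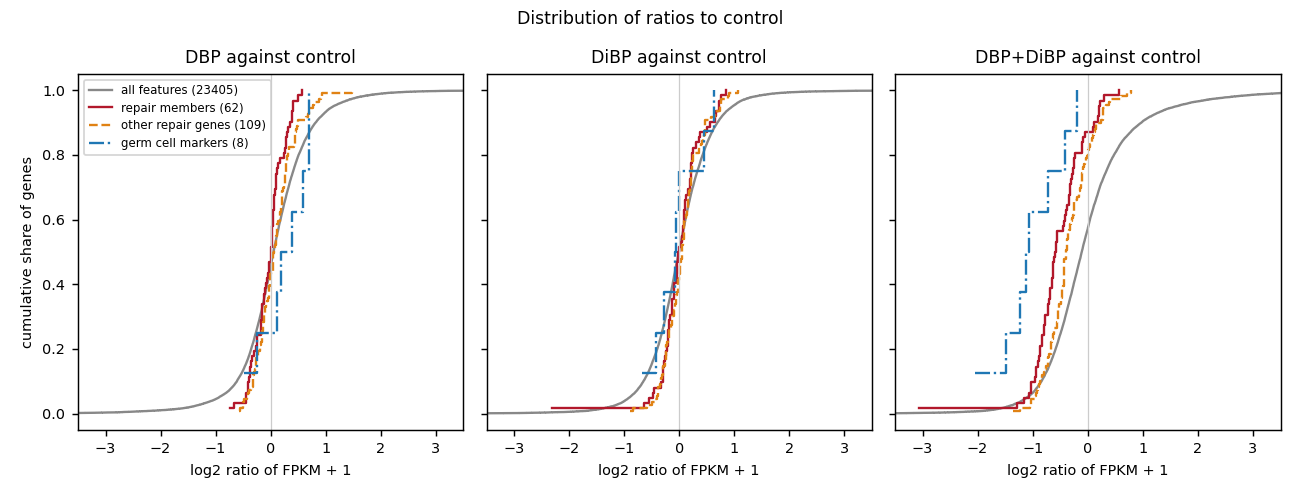
Cumulative share of genes by log2(FPKM + 1) ratio to control in each exposed library, for the 62 compared repair genes (red), the 109 other repair genes (orange), the 8 germ cell markers (blue) and all features (grey). In DBP and DiBP the curves of repair genes and of all features cross near 0; in DBP+DiBP the curve of repair genes lies to the left of that of all features, with 87.1% below 0 against 57.2% of all features.

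Another 112 repair genes that the naming rule does not match were described from 9 lists. They include MND1 and mlh3, which are counted among the meiosis genes too. Of the 112, 109 were compared. In DBP 1 was higher (background 6.68%) and 0 lower (background 4.5%), with a median of 0.06. In DiBP 1 was higher (background 4.6%) and 0 lower (background 3.86%), with a median of 0.05. In DBP+DiBP 0 were higher (background 9.57%) and 5 lower, with a median of -0.39. There 87 of 109 (79.8%) were below 0, against 57.2% of all features. Most thus had lower values in DBP+DiBP than in control, by less than 2-fold, and the 5 called are near the background of 6.42%. RPA2, a subunit of the protein that coats single-stranded DNA, had 138, 126, 121 and 67.2 FPKM, and RPA3, another subunit, had 128, 116, 90.3 and 68.5. rmi2, of the complex that dissolves crossed strands, had 36.4, 32.7, 19.1 and 14.9. As with APEX1, rmi2 was below control in both libraries that received DiBP, by less (log2 ratios to control -0.15, -0.89 and -1.24).

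SFR1, a helper of strand exchange, had 26.6, 36.0, 28.5 and 12.4 FPKM, and MND1, which acts with DMC1 in meiosis, had 60.9, 54.5, 64.1 and 23.1. rad9b, of the checkpoint clamp, had 57.4, 94.6, 76.9 and 27.2, and RAD1, of the same clamp, had 105, 127, 112 and 53.8. All 4 were lowest in DBP+DiBP. DCLRE1C (Artemis, the end joining nuclease) was the gene higher in DBP, at 15.9, 46.3, 27.5 and 20.3 FPKM, and slx4, a scaffold of nucleases, the gene higher in DiBP, at 3.39, 7.21, 8.24 and 4.34. POLB, the polymerase that fills base excision gaps after APEX1 has cut, had 47.3, 73.8, 80.7 and 37.5, above control in both single exposures. pnkp, which trims broken ends, had 7.62, 8.50, 7.93 and 13.05, highest in DBP+DiBP.

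Genes of the transcriptional answer to DNA damage showed no common direction. Of 16 compared, 0 were higher and 3 lower after DBP (background 6.68% and 4.5%), 0 higher and 2 lower after DiBP (background 4.6% and 3.86%), and 1 higher and 1 lower after both (background 9.57% and 6.42%). mdm2, a ubiquitin ligase induced by DNA damage, had 25.02 FPKM in control, 39.6 after DBP, 40.4 after DiBP and 12.1 after both. The cell cycle inhibitor cdkn1a had 12.3, 4.74, 11.3 and 5.25, low in DBP and in DBP+DiBP. mdm2 and cdkn1a, both known to be induced by damage, thus stood on opposite sides of control in DBP. The copies of the stress genes GADD45A and GADD45B differed among themselves. GADD45A ENSDARG00000043581 had 6.47, 3.28, 5.83 and 28.2 FPKM, highest in DBP+DiBP, and ENSDARG00000104571 had 54.7, 60.3, 57.4 and 47.2, lowest there. GADD45B ENSDARG00000027744 had 51.1, 9.49, 49.3 and 102, highest in DBP+DiBP, and ENSDARG00000013576 had 19.5, 3.86, 8.90 and 13.6, highest in control. Both GADD45B copies were lowest in DBP.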

How the data were processed

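The values in the 4 files the authors deposited, 1 for each library, were taken as FPKM from their form. HISAT2, HTSeq 0.6.1 and GRCz10 are named per the submitters' processing notes, without a role; per the labels, 3 μg of RNA went into each NEBNext Ultra library. Identifiers with equal values were merged, leaving 42683 features not all at 0. Ratios used log2(FPKM + 1), without rescaling, on features averaging 1 FPKM or more, and a 2-fold rule (Python 3.11.15, pandas 2.3.3, numpy 2.4.6). How this rule behaves on libraries without replicates was not tested. Symbols came from the gene name table given with the data. No p-value was computed, since each group has 1 library, and the depth is known only relative to control.

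The members and gene lists were chosen with earlier results of these data known. Named genes were all members past 2-fold against control or between the isomers, a fixed list of main repair genes, and up to 4 genes of each other list. A few genes that these rules name are not reported here, though the counts include them. Further members, gene pairs and neighbours were named after their values were seen. The alternatives tried were another pseudocount, filters, 3 other scalings, a 1.5-fold rule and the set without the genes matched by first letters.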

Additional observations from a re-analysis of the deposited data

How the results depend on the processing

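No paired analysis was possible because each group has 1 library, and no library could be left out for the same reason. Values below are counts past 2-fold in either direction or medians; the cause of each change was not tested unless the setting itself is the cause. With a pseudocount of 0.1 the members called against control were 4 (DBP), 6 (DiBP) and 11 (DBP+DiBP), 14 in DBP+DiBP against DBP and 15 against DiBP, and the other repair genes 4, 3 and 8 against control and 1 for DiBP against DBP. The share of all features called rose too, for DBP+DiBP against control to 13.5% higher and 12.2% lower. Higher and lower shares were 11.7% and 7.68% in DBP and 8.58% and 8.40% in DiBP. For DBP+DiBP they were 13.5% and 18.0% against DBP and 14.6% and 14.1% against DiBP. For DiBP against DBP they were 4.95% and 8.97%. Without a filter the median of members in DBP+DiBP was -0.40. With a mean of at least 5 FPKM 1 member was called for DiBP against DBP (all features 2.38% higher and 3.76% lower). With totals made equal the medians were 0.15 (DiBP), -0.63 (DBP+DiBP against DiBP) and -0.80 (departure from additivity), with 15 members called against DiBP and 2 other repair genes in DiBP. The same medians over all features moved to 0.10, -0.24 and -0.32, from -0.01, -0.13 and -0.16 in the main setting. Median-ratio scaling gave 2 members in DBP, 4 in DBP+DiBP against control and 5 against DBP (median -0.31), 2, 8 and 7 other repair genes for DBP+DiBP against control, DBP and DiBP, and 11 departures (median -0.47). There FANCD2, xrcc1 and UNG came just under 2-fold, at -0.98, -0.94 and -0.93. Of all features with that scaling, 5.66% were higher and 4.93% lower in DBP, and 10.7% and 5.46% in DBP+DiBP. The shares for DBP+DiBP were 11.9% and 8.20% against DBP and 11.4% and 6.88% against DiBP, and for departures 17.3% and 16.3%. The medians over all features were -0.04 for DBP+DiBP against DBP and -0.03 for departures.

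Centring on the 8 germ cell markers turned the direction. The member medians became 0.59 in DBP+DiBP against control, 0.70 against DBP, 0.22 against DiBP and 0.58 for additivity, with -0.26 in DBP and 0.38 for DiBP against DBP. FANCD2, xrcc1 and UNG became 0.035, 0.0606 and 0.0679. The centring subtracts 1 value per comparison from every feature. It moved the median of all features from -0.11 to 0.99 in DBP+DiBP. The gap between the medians of members and of all features was unchanged by construction. Members called were 4, 20, 4, 21 and 4 (DBP, DBP+DiBP, DiBP against DBP, DBP+DiBP against DBP and DiBP), and other repair genes 28, 2, 33 and 6 for the last 4. Of the 20 and 21 members, 19 and 20 were higher, where 49.2% and 49.8% of all features were higher. APEX1 stayed lower in DiBP and DBP+DiBP under each setting tried.

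At 1.5-fold, the members called were 7, 15 and 36 against control, 6 for DiBP against DBP, 36 and 38 for DBP+DiBP against DBP and DiBP, and 45 for additivity, with 10, 11, 32, 8, 47 and 40 other repair genes. Leaving out the genes matched by first letters gave 0 in DBP, 1 in DiBP, 1 for DiBP against DBP and 12 departures, with the background shares of the main setting. A filter that ignores the DBP+DiBP library, added after seeing the data, kept each result within 1.5 times. Scaling also moved the split of all features: DBP+DiBP against DBP went from 10.2% higher and 11.3% lower to 11.9% and 8.20% with median ratios, DBP+DiBP against DiBP from 10.5% and 8.19% to 9.28% and 11.3% with equal totals, and DiBP against control from 4.6% and 3.86% to 6.06% and 3.02%.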

Other observations

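Neighbours of repair genes, by their order in the GRCz12tu annotation, were looked up after the values were seen. TMEM167A, next to xrcc4, had 26.2 FPKM in control, 85.4 after DBP, 76.5 after DiBP and 15.8 after both, where xrcc4 had 31.3, 32.3, 52.5 and 20.7. The neighbours shared a high DiBP and a low DBP+DiBP value but not the DBP value. POLG, the mitochondrial DNA polymerase, overlaps FANCI and had 8.50, 9.004, 6.48 and 3.20 FPKM, lower in DBP+DiBP by more than FANCI. gpx1b, a glutathione peroxidase next to FANCD2, had 88.9, 25.06, 38.2 and 314, opposite to FANCD2 in DBP+DiBP.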
